A study of Mus musculus with 10 samples.

Results

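The cytosolic ribosomal protein genes are described here by the state of their promoters in neural stem and progenitor cells (NSPCs). Members were the autosomal protein-coding genes whose symbol starts with Rpl or Rps and a digit, together with *Rplp0*, *Rplp1*, *Rplp2* and *Rpsa*, leaving out the S6 kinase genes and pseudogenes. This gave 82 of 21938 protein-coding genes on autosomes, X and Y in GENCODE M21. By symbol, 40 encode proteins of the large subunit, 30 proteins of the small subunit and 3 the acidic stalk, and 8 are paralogs of a core gene. The last, *Rps19bp1*, encodes a protein that binds a ribosomal protein and met the rule by its name alone. Another 4 genes with matching symbols lie on the X chromosome and were left out by the rule.

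Each ribosome carries a single copy of most of these proteins, so their genes are expressed together and at high levels in growing cells. Mammalian ribosomal protein genes usually start transcription within a run of pyrimidines. The resulting 5′ terminal oligopyrimidine (TOP) motif in the mRNA lets the kinase mTOR, through the RNA-binding protein LARP1, turn translation of these mRNAs up or down with nutrients and growth factors. Stem cells that leave quiescence raise protein synthesis, and whether the promoters of these genes are already open in quiescence is what the ATAC-seq comparison can show.

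NSPCs were primary cultures from C57BL/6 mice at postnatal day 5, with stem cells and progenitors grown together. Activated NSPCs grew in medium with FGF2 and EGF at 20 ng/ml. Quiescent NSPCs had no EGF but 20 ng/ml FGF2 and 25 ng/ml BMP4, for 4 days according to the labels, and reactivated NSPCs were returned from that medium to growth medium for 9 to 12 days. ATAC-seq, in which the transposase Tn5 cuts open chromatin, gave 2 libraries per state, and ChIP-seq of H3K4me3, a histone mark of active promoters, gave 1 library for the quiescent and 1 for the activated state, so that the H3K4me3 difference has no replicate check.

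The data are lists of MACS peaks, and the main value is fold enrichment, the pileup of reads at the summit over the local background of the same library. A promoter peak lies within 1 kb of any annotated start site of the gene, and the strongest one was used. The ATAC lists held 47323 to 107137 peaks, the longest 2 being the reactivated ones, and the H3K4me3 lists 17186 and 15980. The genome-wide background pileup was 12.1 in quiescent replicate 2 and 6.01 to 6.61 in the other 5 libraries, and the lowest pileup called was 25 and 16 to 17, so weaker sites were not detectable. All 9 progenitor markers looked up, among them *Sox2* and *Nes*, had a promoter peak in all 6 ATAC libraries. Of the 17 markers of other cells, 3 had one in all 6 libraries, 8 in some and 6 in none. The neuronal genes *Snap25* and *Syt1* and the astrocyte gene *Aldh1l1* had one in all 6. Among the genes with a peak in some libraries, the astrocyte genes *S100b*, *Gfap* and *Aqp4* had one in 5, 4 and 2, *Mbp* of oligodendrocytes, *Rbfox3* of neurons and *Tmem119* of microglia each in 3, *Pecam1* of endothelium in 2 and *Cx3cr1* of microglia in 1. Those without any included *Mog* of oligodendrocytes, *Aif1* and *Ptprc* of microglia and blood, and *Cldn5* and *Tek* of endothelium. An open promoter is no measure of expression, and the part of other cells in the results was not tested.

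Promoter sequence was read from RefSeq (GRCm38.p6), which had an entry for 62 of the 82 members. The windows below run from 60 bases before to 20 bases from the start, 5′ to 3′ on the strand of the gene. They are shown for members without a peak in some or all libraries (*Rpl4* to *Rps27rt*), for the 3 members with the strongest peaks (*Rpl15*, *Rpl34*, *Rpl37*) and for the next 4 called members with an entry, in order of adjusted p (*Rps12*, *Rpl13a*, *Rps18*, *Rps9*). Capitals mark runs of 8 or more C or T near the start and the letters TATAA.
Rpl4 (chr9:64173327-64173406, + strand): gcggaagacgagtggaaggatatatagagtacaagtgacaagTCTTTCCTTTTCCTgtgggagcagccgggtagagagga
Rpl10l (chr12:66284382-66284461, - strand): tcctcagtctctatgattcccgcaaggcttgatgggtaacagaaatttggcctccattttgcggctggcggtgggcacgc
Rpl39l (chr16:10170168-10170247, + strand): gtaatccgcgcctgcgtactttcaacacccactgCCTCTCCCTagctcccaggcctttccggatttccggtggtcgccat
Rpl3l (chr17:24727766-24727845, + strand): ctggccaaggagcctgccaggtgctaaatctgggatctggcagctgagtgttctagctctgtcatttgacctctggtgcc
Rps27rt (chr9:114982720-114982799, - strand): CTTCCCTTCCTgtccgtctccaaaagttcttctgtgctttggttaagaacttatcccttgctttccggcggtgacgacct
Rpl15 (chr14:18270967-18271046, - strand): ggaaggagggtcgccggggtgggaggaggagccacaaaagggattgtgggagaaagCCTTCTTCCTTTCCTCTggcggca
Rpl34 (chr3:130730379-130730458, - strand): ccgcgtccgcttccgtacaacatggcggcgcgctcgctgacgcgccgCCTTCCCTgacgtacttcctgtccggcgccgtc
Rpl37 (chr15:5116553-5116632, + strand): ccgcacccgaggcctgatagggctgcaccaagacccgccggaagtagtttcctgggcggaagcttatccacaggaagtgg
Rps12 (chr10:23787190-23787269, - strand): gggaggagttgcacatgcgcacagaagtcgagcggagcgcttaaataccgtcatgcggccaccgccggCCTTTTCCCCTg
Rpl13a (chr7:45128726-45128805, - strand): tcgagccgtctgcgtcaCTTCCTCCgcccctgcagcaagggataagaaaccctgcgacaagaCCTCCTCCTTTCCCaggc
Rps18 (chr17:33955646-33955725, - strand): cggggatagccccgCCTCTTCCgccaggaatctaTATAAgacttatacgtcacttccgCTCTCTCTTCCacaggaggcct
Rps9 (chr7:3703981-3704060, + strand): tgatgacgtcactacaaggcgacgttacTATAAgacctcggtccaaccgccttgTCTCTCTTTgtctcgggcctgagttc

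The pyrimidine run of *Rpl15* was 17 bases long and began 4 bases before the start, and that of *Rpl4* was 14 bases long and ended 5 bases before it. Of the paralogs without a peak, *Rpl10l* had no such run within 50 bases of the start, whereas *Rpl3l* had one of 9 bases there, outside the printed window. Over the 62 members with an entry, a pyrimidine run of 8 or more covered the annotated start in 15 (24.2%), against 3.56% of 16522 protein-coding genes with an entry and 3.98% of the 9175 among them with an ATAC promoter peak in all 6 libraries. Such a run lay at least partly within 50 bases of the start in 50 members (80.6%), against 36.7% and 32.9%. The share was 36.2% of 69 mitochondrial ribosomal protein genes. The letters CTTTC or TCTTT stood within 50 bases of the start, on the sense strand, in 35 members (56.5%), against 16.7% of all genes and 13.1% of those open in all libraries. TATAA or TATTTA, from 45 to 10 bases before the start, was found in *Rps9*, *Rps18*, *Rps26*, *Rps27* and *Rpl22l1* (8.06%), against 5.65% and 2.01%.

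Over the whole window of 300 bases and on both strands, CCGGAAG, a core site of ETS factors, was in 24 members (38.7%), against 12.3% of all genes, 19.1% of genes open in all libraries and 34.8% of mitochondrial ribosomal protein genes. GCCAT, the core of YY1 sites, was in 51.6%, against 39.2% and 38.6%, and in 60.9% of mitochondrial ribosomal protein genes. The shares of GGGCGG (Sp1, 59.7%), CACGTG (E-box, 8.06%) and GCATGCG (NRF1, 6.45%) stood beside 48.2%, 8.08% and 4.67% of all genes and 67.7%, 10.2% and 7.16% of the genes open in all libraries. The median GC content of the window was 58.7% in members, 57% in all genes, 61.7% in genes open in all libraries and 58.3% in mitochondrial ribosomal protein genes. The median ratio of observed to expected CpG was 0.89, 0.602, 0.792 and 0.818 in the same order. A match is only a run of letters and no evidence of a bound factor.

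Nearly all members had an open promoter in every state. An ATAC promoter peak was present in all 6 libraries at 76 of 82 members (92.7%), whereas 53.2% of all protein-coding genes had one. All 30 small subunit genes and all 3 stalk genes were among the 76, with 38 of 40 large subunit genes, *Rps19bp1* and 4 of 8 paralogs. Mitochondrial ribosomal protein genes, whose products form the separate ribosome of mitochondria, had one at 74 of 78 (94.9%), ribosome assembly genes at 29 of 30, and TOP and fusion genes such as *Eef1a1* at 20 of 20. In single libraries, 76 to 78 of the 82 members had a peak.

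The 4 members without a peak in any library were all paralogs, *Rpl3l*, *Rpl10l*, *Rpl39l* and *Rps27rt*, and of all protein-coding genes 31.4% had none. *Rpl3l* replaces *Rpl3* in striated muscle, and *Rpl10l* and *Rpl39l* serve the male germ line. None of the 4 had an H3K4me3 promoter peak either. The nearest ATAC peak lay at least 22443 bp away from *Rpl39l* and at least 3209 bp away from *Rpl3l*. For *Rpl10l* it lay 54856 to 240707 bp away in the quiescent and activated libraries, and 5193 and 5260 bp away in the reactivated libraries, where more peaks were called. The other 4 paralogs, *Rpl22l1*, *Rpl36al*, *Rpl7l1* and *Rps27l*, had a peak in all 6 libraries. *Rpl22l1*, the paralog that can take the place of *Rpl22*, had a fold enrichment of 11.9 and 14.6 in the quiescent libraries, 16.9 and 12.0 in the activated ones and 17.2 and 19 in the reactivated ones.

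Both other members without a full set of peaks encode large subunit proteins. *Rpl4* had no promoter peak in quiescent replicate 1 and activated replicate 2, and 3.9 in quiescent replicate 2, 6.23 in activated replicate 1, and 4.80 and 5.32 in the reactivated libraries. The pileup at its summit was 35 to 50 where it was called, and its H3K4me3 enrichment was 52.4 in quiescent and 40.2 in activated NSPCs. *Rpl8* had no peak in activated replicate 2, but 4.47 and 4.89 in quiescent, 5.30 in activated replicate 1 and 6.99 and 8.61 in reactivated NSPCs. Each state thus had at least 1 library with a peak at both genes. Where called, these peaks were below the members' median fold enrichment of the same library.

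Among the members with a peak, fold enrichment ranged from 3.71 to 20.8 over the 6 libraries. The members' median, replicate 1 before replicate 2, was 8.39 and 8.03 for quiescence, 10.3 and 8.04 for activation and 10.9 and 12.2 for reactivation. Over all protein-coding genes with a peak it was 7.48 and 7.21, 8.89 and 7.59, and 10.7 and 11.4, so that all genes together were also highest in the reactivated libraries. Each peak was therefore also placed within its own list. The median percentile of the members' peaks was 88.5 in quiescent, 87 in activated and 89.5 in reactivated NSPCs (mean of 2 libraries), beside 85, 83.2 and 88.3 for all protein-coding genes. The members' single-library medians ranged from 84.4 to 90.9, so the states did not separate by this measure.

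**Figure D1:**
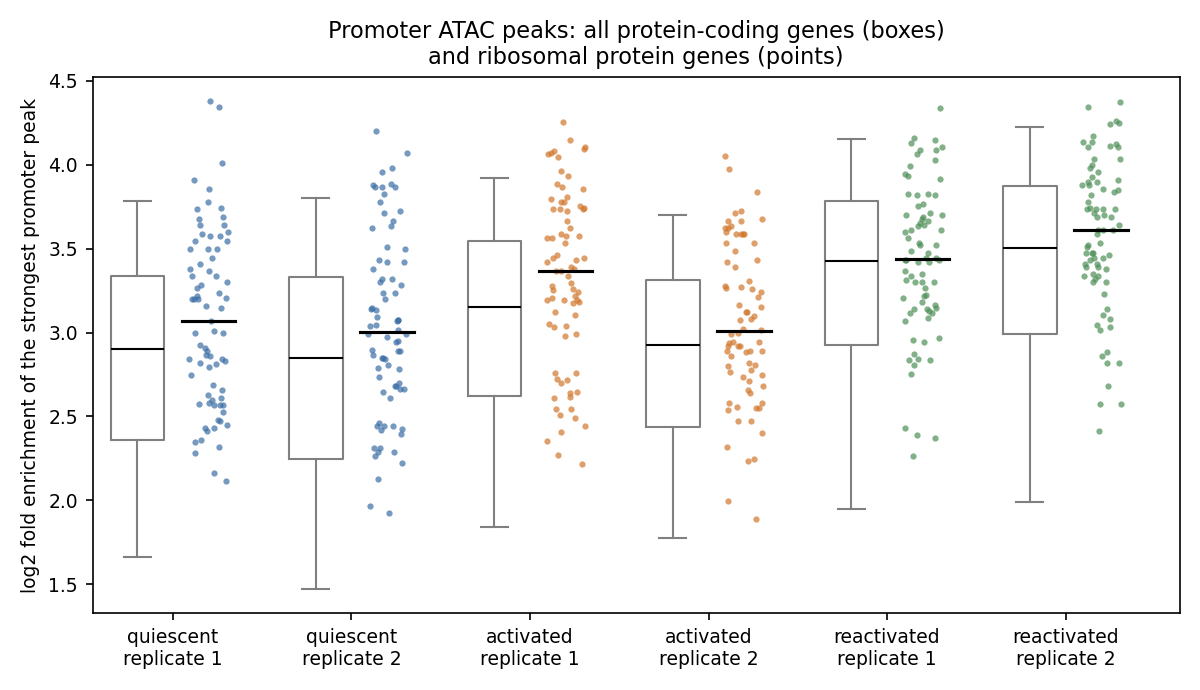
Log2 fold enrichment of the strongest promoter peak in each ATAC library, for all protein-coding genes (boxes from the lower to the upper quartile, whiskers from the 5th to the 95th percentile) and for the ribosomal protein genes (points, with a bar at the median). The points lie within the range of all genes in every library, and both boxes and points are highest in the reactivated libraries.

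The order of the members was alike between libraries. Across the 77 members with a peak in both, log2 fold enrichment correlated with r = 0.88 between the quiescent replicates, with 0.82 (76 members) between the activated and 0.90 (78 members) between the reactivated replicates. Between states r ranged from 0.66 to 0.88. These values run across genes that share a library and its depth, and are a description only. The strongest peaks by mean percentile belonged to 3 large subunit genes, *Rpl15* (99.7), *Rpl34* (99.2) and *Rpl37* (98.9). *Rpl15* had 16.1 and 18.4 in quiescent, 17.1 and 16.6 in activated cells and 20.2 and 20.7 in reactivated NSPCs. Its start lies within 1 kb of that of *Nkiras1*, so the peak cannot be given to 1 of the 2 genes. The weakest peaks of the 76 were those of *Rpl36* (61.5), *Rpl19* (63.7) and *Rpl23* (65.4, with 40.7 in activated replicate 2). *Rpl36* had 5.46 and 3.80 in quiescent, 5.12 and 5.88 in activated cells and 5.17 and 5.96 in reactivated NSPCs. The ranges of *Rpl36* and *Rpl19*, whose values ran from 4.83 to 6.30, overlapped, as did those of *Rpl34* and *Rpl37*.

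By subunit, the median percentile of large subunit genes was 84.5 in quiescent, 84.3 in activated and 86.9 in reactivated NSPCs, and that of small subunit genes 91.8, 90.2 and 91.5. Of the stalk genes, which recruit translation factors to the ribosome, *Rplp0* had the strongest peak, with 10.9 and 12.4, 13.9 and 12.7, and 12.9 and 16 in the 3 states in that order. *Rplp1* had 5.96 and 5.27, 8.71 and 7.56, and 9.85 and 10.1. *Rpsa*, the small subunit gene whose product is also known as a laminin receptor, had 10.1 and 7.45, 13.7 and 10.8, and 13.5 and 15.2. The 28 members that carry snoRNA genes inside their introns, which guide rRNA modification, had a median percentile of 86.6, 88.1 and 89.2, and the other members 89.9, 85.6 and 89.6. The 19 members with a start site of another coding gene within 1 kb had 87.6, 84.7 and 89.5, and the others 89.4, 87.8 and 89.5.

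The summit of the strongest peak lay close to a start site. In the 6 libraries its median position was 28 to 41.5 bp upstream. Within 150 bp it lay in 91% to 94.9% of the members, against 74.8% to 78.1% of all genes with a peak. Among mitochondrial ribosomal protein genes the share was 87.2% to 93.6%, and among TOP and fusion genes 90% to 95%. For ribosome assembly genes it was 83.3% to 90%, and for regulators of ribosome production 50% to 71.4%. A summit close to the start was thus no trait of the members alone. More than 300 bp away it was found at *Rpl4*, *Rpl7*, *Rpl32* and *Rpl38* only, and at each of these genes in some libraries but not in others. At *Rpl7* it stood 667 and 687 bp upstream in quiescent, 81 and 97 bp upstream in activated and 639 and 666 bp upstream in reactivated NSPCs. At *Rpl38*, whose product is needed to translate a subset of Hox mRNAs, it moved between 10 or 11 bp upstream (quiescent replicate 1 and both activated libraries) and 501 or 511 bp downstream (the other 3). Differences of reactivated from activated NSPCs at *Rpl7* and *Rpl38*, and of activated from quiescent NSPCs at *Rpl7*, therefore compare different subpeaks, and the quiescent libraries differ in subpeak at *Rpl38*. The median width of the strongest peak was 344 to 361.5 bp in the members and 334 to 371 bp in all genes.

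**Figure D2:**
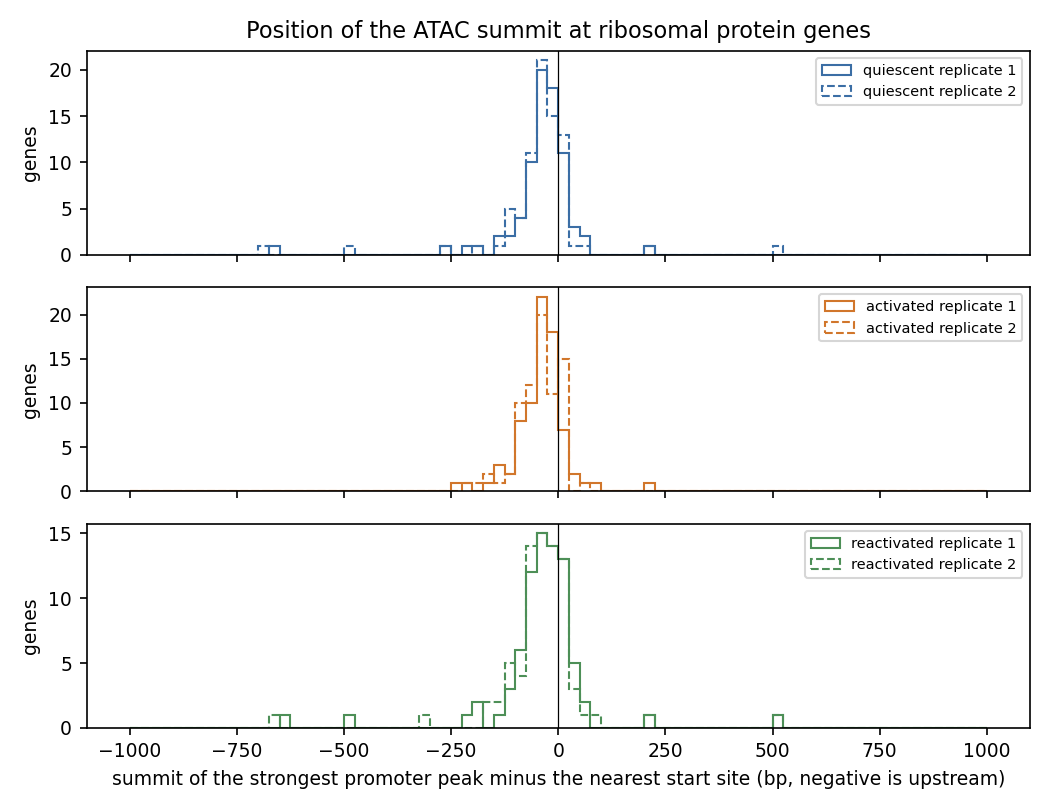
Number of ribosomal protein genes by the distance in bp from the nearest start site to the summit of the strongest promoter peak, in bins of 25 bp, for each state and replicate. In all 3 states most summits fall just upstream of the start, with few beyond 300 bp.

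Whether single promoters differed between states was tested with limma on log2 fold enrichment, each library centred on its median over the 11663 genes with a promoter peak in all 6 libraries, and a gene was called at a Benjamini-Hochberg adjusted p under 0.05. The filter left 76 members, and for these the median SE of a difference was 0.16. The library medians of log2 fold enrichment were 2.97 and 2.94 in quiescent, 3.23 and 2.99 in activated cells and 3.57 and 3.66 in reactivated NSPCs. Differences are thus relative to the typical open promoter, and without the centring every difference from quiescent shifts up by 0.16 in activated and 0.66 in reactivated NSPCs, and every difference of reactivated from activated NSPCs by 0.50. All 3 comparisons use 6 libraries between them and share groups in pairs, so they are not independent of each other.

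Between activated and quiescent NSPCs no ribosomal protein gene was called in either direction. Of all genes, 1.07% were called higher and 0.574% lower in activated NSPCs (limma). The median difference over the members was -0.05 and over all genes -0.03, and 3 of 76 members had an unadjusted p under 0.05, beside 17.3% of all genes. The lowest adjusted p was 0.2 (limma), at *Rplp1*, which was higher by 0.38 (SE 0.14, 95% interval 0.07 to 0.69). *Rpl38* and *Rpsa* followed with 0.36 (SE 0.19) and 0.33 (SE 0.16). The lowest values were those of *Rpl6* (-0.38, SE 0.16), *Rpl34* (-0.35, SE 0.17) and *Rps18* (-0.35, SE 0.15), with adjusted p of 0.26 to 0.32. No member differed by more than 0.38 in either direction. No alternative, among them the pileup in place of fold enrichment, called a member in this comparison. These alternatives called 0.136% to 2.93% of all genes in either direction. On simulated data of the same size limma found none of the genes changed by 0.5, 37.5% of those changed by 1 and 81% of those changed by 1.5 on the log2 scale, so differences of the observed size were below what 2 libraries per state can show.

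Between reactivated and activated NSPCs 8 members were called. *Rpl6* and *Rpl35a* were higher in reactivated NSPCs, 2 of 76 (2.63%) beside 7.17% of all genes. Lower were 6 of 76 (7.89%), among them *Rpl13a*, *Rps12*, *Rps9*, *Rpl38* and *Rpl7*, beside 5.5% of all genes. The difference at *Rpl7* (-0.48, SE 0.14) turned to 0.06 with the pileup and to 0.02 without centring, and 5 of 20 alternatives kept its call. The median over the members was -0.21 and over all genes -0.03. Without centring the median of the members was 0.29 and that of all genes 0.48, with 20 of 76 members called higher and 1 lower beside 48.9% and 0.137% of all genes, so the direction of the members' median follows from the scaling.

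Between reactivated and quiescent NSPCs 1 member was called higher, *Rpl35a* (1.32% beside 12.9% of all genes), and 14 lower (18.4% beside 13.5%). Among the lower ones were *Rps12*, *Rpl13a*, *Rps18*, *Rpl7*, *Rpl37*, *Rpl34*, *Rps10*, *Rps9*, *Rpl27*, *Rpl23a*, *Rpl28* and *Rps23*. The share called lower was near that of all genes, and is therefore no result about the members as a group. Their median was -0.23, and -0.04 over all genes. Without centring the median was 0.43, against 0.62 over all genes, and 33 of 76 members were called higher and none lower, beside 65.9% and 0.146% of all genes.

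**Figure D3:**
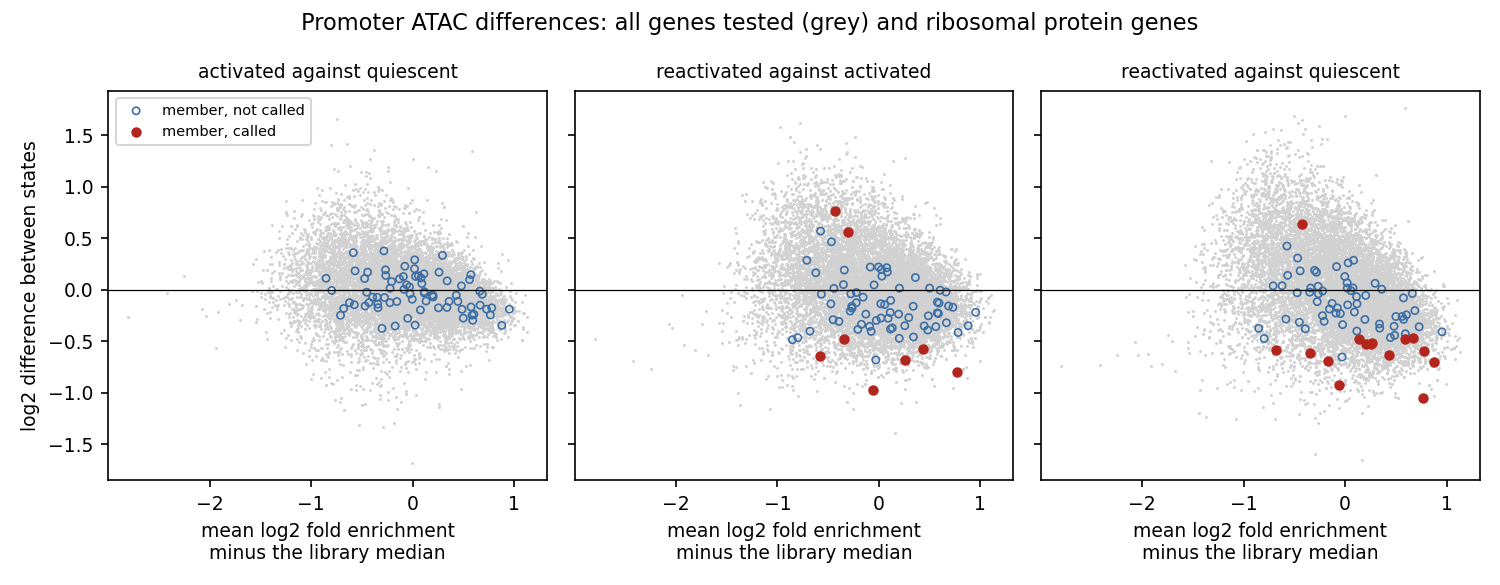
Log2 difference between states against the mean log2 fold enrichment relative to the library median, for the 3 comparisons. Grey points are the 11663 genes tested, open circles members that were not called and filled circles those called, which number 0, 8 and 15 from left to right.

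*Rps12* encodes a small subunit protein and lies at chr10:23785183-23787275. Its fold enrichment was 20.3 and 15.5 in quiescent, 17.7 and 15.7 in activated cells and 14.2 and 13.0 in reactivated NSPCs. Both reactivated libraries were below the other 4 on the deposited scale, although the reactivated values of most genes were above them. Relative to all genes *Rps12* was lower by 2.07-fold than in quiescent NSPCs (log2 -1.05, SE 0.16, limma adjusted p = 0.0034) and by 1.74-fold than in activated NSPCs (-0.80, SE 0.16, adjusted p = 0.015). The pileup at its summit, 172 and 219, 194 and 118, and 182 and 161, gave -1.07 (adjusted p = 0.0036) and -0.92 (0.015), and no centring -0.39 (0.081) and -0.30 (0.19). The symbols of 23 annotated pseudogenes derive from *Rps12*, and reads that fit more than 1 copy could be lost or shared.

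*Rpl13a*, a large subunit gene at chr7:45125558-45128761 with 4 snoRNAs, is also known for a role in repressing translation of inflammatory mRNAs. It had 9.72 and 8.53 in quiescent, 11.9 and 9.27 in activated cells and 7.75 and 7.37 in reactivated NSPCs. Here too the reactivated libraries were the lowest 2 of the 6. It was lower by 1.90-fold than in quiescent (log2 -0.93, SE 0.15, limma adjusted p = 0.0035) and by 1.97-fold than in activated NSPCs (-0.98, SE 0.15, adjusted p = 0.0077). The latter call also held without centring (-0.47, adjusted p = 0.048). *Rps12* and *Rpl13a* were the only members called against quiescence with each of the 6 libraries left out in turn. Of 20 alternatives, 19 kept the call of each against quiescence, the exception being no centring.

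*Rps9*, a small subunit gene, had 10.4 and 9.73, 13.2 and 12.0, and 9.85 and 12.5 in quiescent, activated and reactivated NSPCs. As deposited the reactivated libraries overlapped both other states. Relative to all genes, the difference of reactivated from activated NSPCs was -0.69 (SE 0.15, limma adjusted p = 0.018) and that from quiescent NSPCs -0.52 (SE 0.15, adjusted p = 0.028), while without centring they were -0.18 (adjusted p = 0.41) and 0.14 (0.5). *Rps18*, whose start lies within 1 kb of that of *Vps52*, had 9.62 and 7.95, 8.30 and 7.01, and 7.82 and 9.38. Its difference of reactivated from quiescent NSPCs was -0.69 (SE 0.15, limma adjusted p = 0.01), -0.79 (adjusted p = 0.011) with the pileup and -0.03 (adjusted p = 0.89) without centring.

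*Rpl35a*, a large subunit gene at chr16:33056453-33060189 near the start of *Iqcg*, was the one member called higher in both comparisons. It had 4.86 and 5.35 in quiescent, 4.64 and 5.85 in activated cells and 11.8 and 13.4 in reactivated NSPCs. On this deposited scale the library medians of all genes were also highest in reactivated NSPCs. Without centring, 48.9% of all genes were called higher against activation and 65.9% against quiescence. With centring, the log2 difference of *Rpl35a* was 0.77 (SE 0.19, limma adjusted p = 0.028) from activated and 0.64 (SE 0.19, adjusted p = 0.031) from quiescent NSPCs. *Rpl6* had 6.70 and 6.42, 5.70 and 5.56, and 12.8 and 10.9, and differed from activated NSPCs by 0.56 (SE 0.16, adjusted p = 0.043). Both calls were lost when the pileup at the summit took the place of fold enrichment, with 0.34 (adjusted p = 0.37) for *Rpl35a* and 0.15 (0.66) for *Rpl6* against activated NSPCs. The local background at *Rpl35a* was 7.32 and 6.99 in reactivated libraries, close to the genome-wide value, while its median over all genes with a peak was 11.4 and 10.8 there and 6.90 to 12.4 in the other libraries. Its part in the difference was not tested.

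The 2 called members with the strongest peaks by percentile were *Rpl34* and *Rpl37*. *Rpl34* had 20.8 and 15.8 in quiescent, 19.1 and 13.2 in activated cells and 17.7 and 17.6 in reactivated NSPCs. Its difference from quiescent NSPCs was -0.70 (SE 0.17, limma adjusted p = 0.015), -0.27 (adjusted p = 0.38) with the pileup and -0.04 (adjusted p = 0.87) without centring. *Rpl37* gave -0.59 (SE 0.14, adjusted p = 0.014), but 0.07 without centring, and -0.48 (0.12) with the pileup. Of the 15 calls against quiescence, 6 held with the pileup in the same direction, at *Rpl13a*, *Rpl27*, *Rps10*, *Rps12*, *Rps18* and *Rps9*, and of the 8 against activation 3, at *Rpl13a*, *Rps12* and *Rps9*. With the pileup no member was called higher, and 5 and 12 of 76 were called lower against activation and quiescence, while of all genes 3.28% and 7.6% were called higher and 3.2% and 7.13% lower. The calls rest on few libraries. Without reactivated replicate 1 or without reactivated replicate 2 no member was called against activation and 2 against quiescence, and of all genes 0% and 0.386% were called against activation and 2.49% and 5.58% against quiescence. Without activated replicate 1 and 2 the calls against activation fell to 5 and 2, beside 9.06% and 4.71% of all genes, and without quiescent replicate 1 and 2 those against quiescence to 9 and 5, beside 18.2% and 12.1%.

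**Figure D4:**
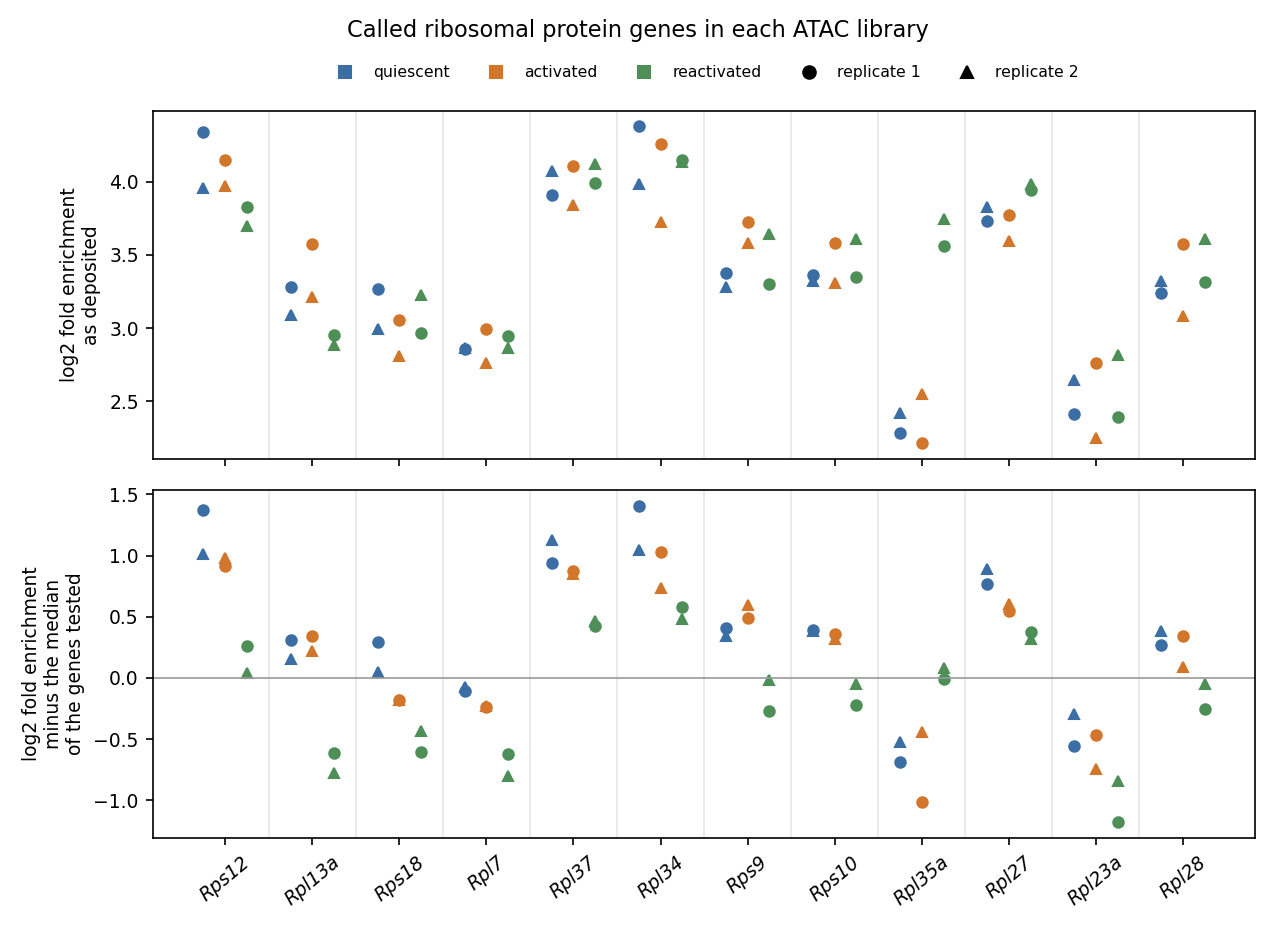
Log2 fold enrichment of 12 called members, those of lowest adjusted p among the genes named here, in each ATAC library, as deposited (upper panel) and minus the library median over the genes tested (lower panel). *Rps12* and *Rpl13a* are lowest in the reactivated libraries in both panels, *Rpl35a* is highest there, and the reactivated values of most others are lower in the lower panel alone.

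The other genes of the pathway gave no calls between activated and quiescent NSPCs with limma. Of 74 mitochondrial ribosomal protein genes, 20 TOP and fusion genes, 29 ribosome assembly genes and 14 regulators tested, 8, 1, 3 and 1 had an unadjusted p under 0.05 there, beside 17.3% of all genes. From quiescence to reactivation, 10 of the 20 TOP and fusion genes (50%) were lower and none higher, beside 13.5% and 12.9% of all genes. Counts of this list with a library left out are not given here. Without reactivated replicate 1 or 2, 2.49% or 5.58% of all genes were called in this comparison in either direction. The median of the TOP and fusion genes was -0.45 relative to all genes but 0.21 without centring. There 5 were called higher and none lower, beside 65.9% and 0.146% of all genes. Among the 10 lower genes were *Fau*, which encodes a ribosomal protein fused to a ubiquitin-like protein (-0.88, SE 0.14, limma adjusted p = 0.0038), and the elongation factor genes *Eef1a1* (-0.73, SE 0.15, adjusted p = 0.0094) and *Eef1b2* (-0.71, SE 0.15, adjusted p = 0.01). None of these 3 was called without centring (-0.23, -0.07 and -0.05). The peak of *Fau* is also the strongest peak of *Mrpl49* in all 6 libraries, so its value cannot be given to 1 of the 2 genes and it enters both lists. Of 74 mitochondrial ribosomal protein genes 3 were higher (4.05%) and 13 lower (17.6%, *Mrpl49* among them), with a median of -0.06. The 3 higher genes rest on 2 peaks, since *Mrpl46* and *Mrps11* share theirs. Of 29 assembly genes 4 were higher (13.8%) and 3 lower (10.3%), with a median of -0.08. Without centring both medians were above 0 (0.60 and 0.58), with 47 of 74 and 19 of 29 genes called higher and none lower, beside 65.9% and 0.146% of all genes. *Rrn3*, an initiation factor of RNA polymerase I, was higher by 0.84 (SE 0.15, adjusted p = 0.0049), and was called higher without centring too (adjusted p = 2.5e-05). *Ncl*, which encodes nucleolin, was lower relative to all genes (-0.53, SE 0.14, adjusted p = 0.019), but its deposited values were 13 and 12.2 in quiescent and 13.5 and 14 in reactivated NSPCs, and the difference turned to 0.13 (adjusted p = 0.52) without centring. Of the 14 regulators, *Larp1* alone was called (-0.54, SE 0.16, adjusted p = 0.028), and its difference likewise turned to 0.12 (adjusted p = 0.61). Against activated NSPCs the counts higher and lower were 4 and 6, 1 and 4, 5 and 2, and 0 and 3 for the mitochondrial, TOP and fusion, assembly and regulator genes, in that order, beside 7.17% and 5.5% of all genes. Without centring none of these was called lower there, and 26, 2, 12 and 4 were called higher, beside 48.9% of all genes.

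H3K4me3 marked the same promoters. A peak was present in both states at 78 of 82 members (95.1%), beside 59.9% of all genes, the 4 others being the paralogs without an ATAC peak. The median fold enrichment was 48.6 in quiescent and 48.9 in activated NSPCs, beside 37.4 and 35.2 for all genes with a peak. The median width was 2606 and 2710 bp, beside 2152 and 2043 bp. In the mitochondrial, TOP and fusion, assembly and regulator lists 100% of the genes had a peak in both states. Their median fold enrichment was, in that order, 46.6 and 41.9, 46.6 and 45.3, 47.3 and 45.3, and 45 and 41.7. Their median widths were 1997 and 1939 bp, 3270 and 3268 bp, 2699 and 2760 bp, and 2664 and 2404 bp. A strong mark was thus no trait of the members alone. In quiescent NSPCs the highest values among the members were those of *Rpl11* (71.0), *Rpl36al* (68.9) and *Rpl5* (67.7). The lowest were those of *Rps19bp1* (31.2), *Rpl22l1* (31.7) and *Rpl7l1* (33.6). *Rpl5* and *Rpl11* encode the proteins that bind 5S rRNA and, when ribosome assembly fails, Mdm2. In activated NSPCs *Rpl36* (76.1), *Rpl8* (68.7) and *Rps15* (65.9) were highest and *Rpl7l1* (28.9), *Rpl24* (31.5) and *Rps27* (35.8) lowest.

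Of the genes with the highest H3K4me3 in activated NSPCs, *Rpl36* had the weakest ATAC peak of the 76 by mean percentile and *Rpl8* lacked one in activated replicate 2. Neither was among the 3 highest in H3K4me3 in quiescent NSPCs, but both were high there too. *Rpl36* had 66.4 and *Rpl8* 57, at percentiles 99.1 and 95.4 of that list. Across the members, log2 H3K4me3 enrichment correlated with log2 ATAC enrichment by r = -0.13 (quiescent replicate 2, 78 members) and -0.09 (replicate 1, 77 members) in quiescent and by -0.24 (78 members) and -0.23 (76 members) in activated NSPCs. These are weak correlations over genes, and a description only. Between the states the H3K4me3 enrichment of the members correlated with r = 0.59 (78 members).

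The median log2 ratio of H3K4me3 in activated over quiescent NSPCs was -0.03 over the 78 members and -0.11 over all genes. Of the members 33 were above and 45 below 0, beside 4324 and 8808 of 13132 genes. Relative to all genes, the median of the members was 0.08, so its sign depends on the scaling. No member was more than 1.5-fold higher in activated NSPCs, beside 0.792% of all genes, and 2 were more than 1.5-fold lower (2.56%), beside 5.46%. They were *Rps18*, with 60.4 in quiescent and 38.1 in activated NSPCs, and *Rpl15*, with 67.0 and 43.6. The peak at *Rps18* was also wider in activated NSPCs, 6250 bp against 3512 bp, and for broad peaks fold enrichment is an average over the peak, so a peak of other length holds other sequence. At *Rpl3* the width was 1667 bp in quiescent and 3886 bp in activated NSPCs with enrichments of 38.2 and 37.4. The widest peak was that of *Rpl35*, 6757 and 7038 bp, which also covers the start of *Arpc5l*. With 1 library per state these differences have no replicate check.

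**Figure D5:**
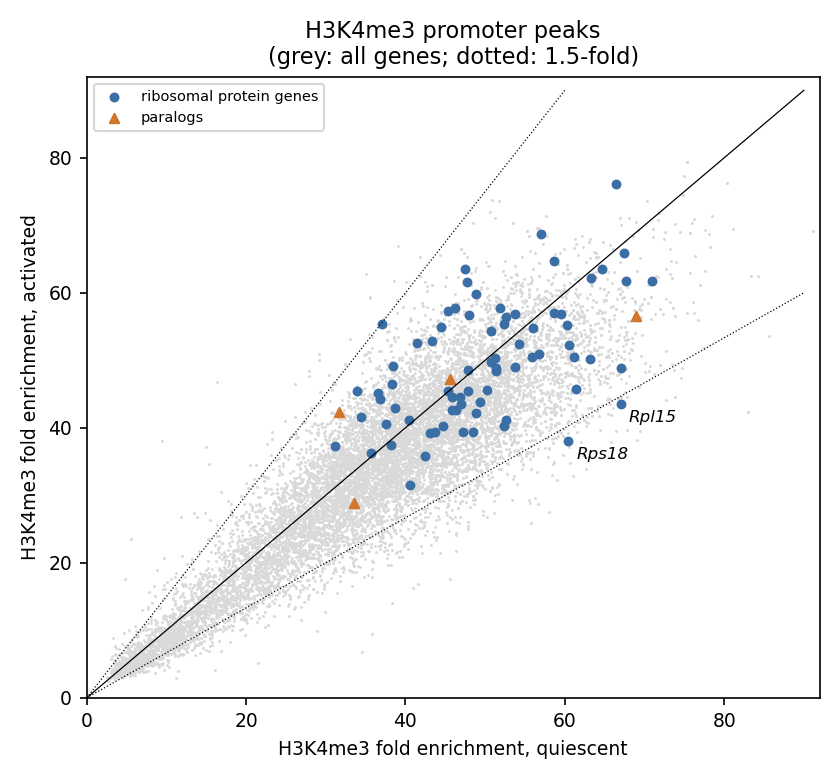
H3K4me3 fold enrichment of the strongest promoter peak in activated against quiescent NSPCs, 1 library each. Grey points are all genes with a peak in both, circles the ribosomal protein genes and triangles the paralogs. The solid line marks equal values and the dotted lines 1.5-fold, and *Rps18* and *Rpl15* lie below the lower line.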

How the data were processed

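The authors trimmed ATAC-seq reads with Trim Galore 0.4.0, aligned them to mm10 with Bowtie2 2.2.5, removed duplicates with Picard 1.88 and SAMtools 1.3.1, and called peaks in each library with MACS at an FDR of 0.05, and broad H3K4me3 peaks against input. Fold enrichment is a ratio computed by the authors within a library, with no scaling across libraries. The −log10 of p-values and of q-values, deposited beside it, depends on depth. The deposited score and the summit offset come from the same call, and the score was not used. The 2 input libraries had no list and were not analysed here.

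The strongest peak within 1 kb of any start site in GENCODE M21 (GRCm38, the same build as mm10) represented a gene, an overlap of 1 bp sufficing. Peaks on contigs were left out. limma 3.58.1 in R 4.3.3 was run over 11663 genes with a peak in all 6 ATAC libraries, on log2 fold enrichment without a pseudocount, with 1 model for the 3 states. No count model was fitted, since the lists hold no read counts. The pileup at each summit was recovered from fold enrichment and p, to a relative tolerance of 0.0001 for 99.99% to 100% of promoters, and log2(pileup + 1) was fitted as an alternative. The recovery and limma were tested on simulated data. Python 3.11.15 with numpy 2.4.6, pandas 2.3.3, scipy 1.17.1 and matplotlib 3.10.9 was used for the rest.

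The methods call the 2 libraries per state biologically independent, and give 72 h of quiescence medium where the labels give 4 days. Values of a few single genes are not reported here. Named were members without a peak, called members (at most 10 per comparison), the 3 highest and lowest by percentile, by difference and by H3K4me3 enrichment and width, the stalk genes, *Rpsa*, paralogs and H3K4me3 ratios past 1.5. *Rpl23a*, *Rpl28* and *Rps23*, called beyond these 10, and the single genes of the other lists were named after their values were seen. The members, lists and rules were chosen with earlier results of these data known. Alternatives were other scalings, windows of 500 bp and 2 kb, a −log10 q of 10 or more, other rules for peaks, start sites and filters, a replicate block, and each library left out.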

Additional observations from a re-analysis of the deposited data

How the results depend on the processing

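The number of ribosomal protein genes called between activated and quiescent NSPCs was 0 under every alternative, beside 0.136% to 2.93% of all genes. Against activation, the main count of 8 became 21 without centring, 3 with missing promoters set to the lowest fold enrichment, 1 with the sum of fold enrichments and 5 with the pileup, an alternative chosen after the data were seen, and 0 to 6 with a library left out. Against quiescence, the main count of 15 became 33 without centring, 24 with a trend in limma and 8 with the sum, and 2 to 19 with a library left out. The shares of all genes called moved as well, against activation to 49.1%, 10.4%, 0.626% and 6.47%, and against quiescence to 66%, 31.3% and 8.62% in the same order. With a library left out they ran from 0% to 13.8% and from 2.49% to 29.6%. Other scalings, windows, peak rules and fits stayed within 1.5 times these counts. The replicate numbers were not used to pair the libraries. Deviations of equal numbers correlated over genes with r of 0.00769, 0.0303 and -0.0186. With 2 libraries per state these values cannot show whether libraries of equal number were prepared together. With a replicate block 0, 6 and 12 members were called, beside 1.72%, 12% and 25.6% of all genes.

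Without centring, the median differences of the members turned to 0.10, 0.29 and 0.43. Among the single genes that turned then were, against activation, *Rpl7* (0.02) and, against quiescence, *Rpl7* (0.04), *Rpl37* (0.07), *Rps10* (0.13), *Rps9* (0.14), *Rpl27* (0.18), *Rpl23a* (0.07), *Rpl28* (0.18) and *Rps23* (0.13). *Rpl7* against activation also turned with the pileup (0.06), and with its quantile normalization (0.10). The cause was not tested. The median percentile in quiescent NSPCs moved to 89.3 with the gene's own 5′ end alone. The median H3K4me3 ratio turned to 0.08 when centred on all genes. The counts of members with a peak stayed within 1.5 times. Pileups under 16 to 25 were not called, which limits weak promoters.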
